A study of Mus musculus with 18 samples.

Results

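Mill1, Ceacam12, Ptprs, RP23-348B21.2, RP24-138O17.3, Cab39l, Ccdc152 and Vps41 are 8 of the 21011 genes in the count table, and 8 of the 16517 that were tested. They were chosen by their adjusted p-values and the sign of their fold changes, which were called in the same direction in all 3 Notch pathway mutants of the study, so their differences between mutant and control mice are described here without a test. The first 5 were higher and the last 3 lower in the mutants. RNA was sequenced from the trypsin-released epidermal side of dorsal skin, labelled as telogen (when hair growth rests), of 18 mice, 1 library per mouse, taken 10 weeks after tamoxifen was given at 8 weeks of age.

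The mutant mice fall into 3 groups. The 4 KR mice lost Rbpj through K14-CreERT, a tamoxifen-dependent Cre recombinase under the promoter of the basal keratin gene Krt14. The 3 LR mice lost Rbpj through Lrig1-CreERT2, expressed from a gene known for stem cells of the upper hair follicle. The 4 KN1 mice lost Notch1 through a K14 driver, written K14-CreERT1 in the labels. Matched controls came from the batch or litter of each mutant (2 for KR, 3 for LR, 2 for KN1), and the labels give no genotype for them beyond that. Each driver acts in some of the cells only, while the RNA came from all epidermal and follicle cells that the trypsin released.

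Notch receptors are cut when they bind a ligand on a neighbouring cell, and the freed intracellular part enters the nucleus and joins the DNA-binding protein Rbpj to switch target genes on. Without it, Rbpj can keep the same genes off. In mouse epidermis the pathway is known for its part in the differentiation of keratinocytes and for restraining skin inflammation.

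KR libraries held between 8076316 and 9562955 counts, and KR control libraries between 11236817 and 20260259. The LR range was 8541208 to 11239648 beside 8299785 to 11056572 for LR controls, and the KN1 range 8103155 to 9213875 beside 10926731 to 21216169 for KN1 controls. KR control 4 and KN1 control 1 each merge 2 sequencing occasions of 1 mouse. KR control 6, LR control 5 and KN1 control 7 carry a second name in the labels, in the form that the repeat runs have, and are called second-named here. No mutant library is merged or second-named, while every KR control and every KN1 control is one or the other. In KR and KN1, mutation therefore cannot be told apart from merging or a second name. LR controls 2 and 3 are neither merged nor second-named. The mitochondrial share of counts was 0.982% to 1.72% for KR, beside 1.87% to 3.17% for KR controls, then 0.839% to 1.17% for LR, beside 0.892% to 2.26% for LR controls, and 0.65% to 0.981% for KN1, beside 1.11% to 1.23% for KN1 controls. Notch1, the deleted gene of KN1, had 81.9 to 156 CPM in KN1 and 172 to 251 CPM in its controls (log2 fold change -0.91 ± 0.19, SE, adjusted p = 0.0251 by edgeR's quasi-likelihood test). Rbpj had 40.9 to 45.9 CPM in KR and 58.1 to 60.8 CPM in its controls, and 29.9 to 37.9 CPM in LR and 42.7 to 73.1 CPM in its controls. In KN1, where it is not the deleted gene, Rbpj had 30.9 to 36.8 CPM, against 42.6 to 44.2 CPM in KN1 controls, also with no overlap. Groups did not overlap, in either direction, in 38.4% of tested genes in KR, 19.6% in LR and 28.1% in KN1. Rbpj did not pass by the same test (adjusted p = 0.135 in KR, 0.0659 in LR and 0.31 in KN1). Whole-gene counts do not resolve a deleted exon.

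The cells were keratinocytes by their markers. Summed over 7 of 7 basal keratinocyte genes, the level was 33720 to 40910 CPM in KR and 29440 to 31960 CPM in KR controls, 32460 to 34240 CPM in LR and 28190 to 31850 CPM in LR controls, and 37070 to 43360 CPM in KN1 and 37420 to 42230 CPM in KN1 controls. It separated mutants from controls in KR and LR. T cell markers (6 of 6 in the table) summed to 140 to 256 CPM in KR and 62.3 to 137 CPM in KR controls, 47.1 to 120.3 CPM in LR and 118 to 163 CPM in LR controls, and 77.2 to 99.0 CPM in KN1 and 168 to 191 CPM in KN1 controls, so they were higher in KR and lower in KN1. Langerhans cell and macrophage markers (6 of 6) were likewise higher in KR, at 1056 to 1273 CPM against 452 to 849 CPM in KR controls, and lower in KN1, at 663 to 803 CPM against 1021 to 1544 CPM in KN1 controls. Suprabasal markers (6 of 6) were lower in KR, at 11840 to 26370 CPM against 28510 to 28650 CPM in KR controls, and sebocyte markers (7 of 7) lower in LR, at 1461 to 2253 CPM against 2498 to 2959 CPM in LR controls. Melanocyte and Schwann cell markers (7 of 7) were higher in KN1, at 52.9 to 80.4 CPM against 33.3 to 34.5 CPM in KN1 controls. Hair matrix markers (8 of 8), genes of growing hair, varied widely between mice: they summed to 10.1 to 513 CPM in KR and 12.02 to 304 CPM in KR controls, 13.7 to 437 CPM in LR and 5.54 to 293 CPM in LR controls, and 23.6 to 512 CPM in KN1 and 10.7 to 13.3 CPM in KN1 controls, separating in KN1. Fibroblast markers (7 of 7), which separated in no batch, summed to 14.8 to 59.4 CPM in mutants and 15.2 to 50.5 CPM in controls, and the 4 endothelial markers in the table to 0.138 to 4.75 CPM in mutants and 0.968 to 3.39 CPM in controls. Of 10 marker lists, 0 separated mutants from controls in the same direction in all 3 comparisons. Separation was common among single genes: in either direction, 38.4% of tested genes separated in KR, 19.6% in LR and 28.1% in KN1. Their part in the results was not tested. In bulk RNA, fewer cells of a type and less RNA per cell cannot be told apart.

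GENCODE M21, the annotation of GRCm38 (the assembly also called mm10, which the submitters' processing notes name), gave a position for 6 of the 8 genes. Mill1, an MHC class I-like gene known from rodents (ENSMUSG00000054005.4), lies on chromosome 7 at 18245347 to 18266092, plus strand. Ceacam12, of the carcinoembryonic antigen cell adhesion family (ENSMUSG00000030366.10), lies on the same chromosome and strand at 18065929 to 18077986, and ends 167.4 kb before Mill1 starts. Ptprs, the receptor tyrosine phosphatase sigma, which binds proteoglycans and is best known in neurons (ENSMUSG00000013236.17), lies on chromosome 17 at 56412426 to 56476483, minus strand. Cab39l, which encodes a scaffold for the LKB1 kinase complex (ENSMUSG00000021981.10), lies on chromosome 14 at 59440972 to 59585764, plus strand. Ccdc152, a coiled-coil protein gene (ENSMUSG00000091119.2), lies on chromosome 15 at 3280070 to 3303526, minus strand. Vps41, a subunit of the HOPS complex that tethers endosomes to lysosomes (ENSMUSG00000041236.8), lies on chromosome 13 at 18717286 to 18866811, plus strand. All 6 are protein coding. RP23-348B21.2 and RP24-138O17.3 are clone-based names without an entry in the tables used here, and no position or role is given for them.

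Promoter windows are shown because these genes were called alike in mutants of Rbpj, which binds DNA, and of Notch1, its partner. Each window below is RefSeq's 250 bases before to 50 bases after a start, on GRCm38.p6 and 5′ to 3′ on the gene's own strand, and capitals mark TGGGAA, the core of the site that Rbpj is known to bind, or its reverse complement TTCCCA.
Mill1 promoter, chr7:18245097-18245396, plus strand: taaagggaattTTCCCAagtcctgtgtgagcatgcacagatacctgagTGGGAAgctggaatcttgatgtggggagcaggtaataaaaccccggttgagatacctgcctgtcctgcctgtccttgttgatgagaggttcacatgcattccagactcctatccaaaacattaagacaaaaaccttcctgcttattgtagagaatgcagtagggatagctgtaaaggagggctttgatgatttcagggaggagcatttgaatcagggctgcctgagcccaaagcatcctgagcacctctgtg
Ceacam12 promoter, chr7:18065679-18065978, plus strand: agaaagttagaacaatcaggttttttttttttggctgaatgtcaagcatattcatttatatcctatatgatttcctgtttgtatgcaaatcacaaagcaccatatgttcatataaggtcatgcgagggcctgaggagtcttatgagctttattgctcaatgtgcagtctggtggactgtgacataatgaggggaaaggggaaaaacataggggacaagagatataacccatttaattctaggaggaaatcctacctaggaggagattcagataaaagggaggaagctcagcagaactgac
Ptprs promoter, chr17:56476431-56476730, minus strand: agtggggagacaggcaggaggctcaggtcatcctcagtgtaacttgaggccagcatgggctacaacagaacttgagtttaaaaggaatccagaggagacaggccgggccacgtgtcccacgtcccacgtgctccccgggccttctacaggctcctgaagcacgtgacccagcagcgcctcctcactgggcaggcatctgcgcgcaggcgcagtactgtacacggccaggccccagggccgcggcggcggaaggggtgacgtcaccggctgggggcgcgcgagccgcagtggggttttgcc
Cab39l promoter, chr14:59440713-59441012, plus strand: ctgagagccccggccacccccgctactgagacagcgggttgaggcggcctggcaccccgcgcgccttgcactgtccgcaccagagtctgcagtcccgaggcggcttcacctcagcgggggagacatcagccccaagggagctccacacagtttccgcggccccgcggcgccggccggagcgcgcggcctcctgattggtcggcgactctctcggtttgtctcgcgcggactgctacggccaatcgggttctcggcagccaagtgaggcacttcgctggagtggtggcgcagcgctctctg
Ccdc152 promoter, chr15:3303477-3303776, minus strand: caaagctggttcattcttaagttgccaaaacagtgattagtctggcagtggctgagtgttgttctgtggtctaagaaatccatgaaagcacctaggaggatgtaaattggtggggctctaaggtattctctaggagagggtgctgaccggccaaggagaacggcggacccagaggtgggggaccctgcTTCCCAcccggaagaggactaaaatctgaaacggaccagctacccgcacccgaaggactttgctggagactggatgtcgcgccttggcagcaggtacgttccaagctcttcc
Vps41 promoter, chr13:18717042-18717341, plus strand: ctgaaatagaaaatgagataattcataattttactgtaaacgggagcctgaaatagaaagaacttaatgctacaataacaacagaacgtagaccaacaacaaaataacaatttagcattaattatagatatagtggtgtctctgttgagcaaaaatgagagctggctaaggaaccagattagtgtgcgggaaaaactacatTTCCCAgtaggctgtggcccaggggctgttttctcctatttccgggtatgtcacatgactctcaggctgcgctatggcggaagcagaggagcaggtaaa
RefSeq holds 9 windows for these 6 genes, since Ptprs, Cab39l and Ceacam12 have 2 starts each, and those of Ceacam12 overlap. TGGGAA on either strand stood in 4 of the 9 windows, against 25.6% of all 32851 RefSeq promoter windows of the same length. Mill1 held 2 copies, 1 on each strand, and Ccdc152 and Vps41 held 1 each. The fourth window was the second Ptprs start at chr17:56462172-56462471, which is not printed. Both Ceacam12 windows and both Cab39l windows held none. The longer form GTGGGAA, which contains TGGGAA, stood in 2 of the 9, Mill1 and Ccdc152, against 6.38% of all windows. A match is a description of these letters and not a binding site.

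The higher genes are given first, in CPM (reads of a gene relative to the library total, scaled with TMM factors). Mill1 had 200.04, 239, 164 and 188 CPM in KR mice 1, 3, 4 and 5, against 66.0 and 78.5 CPM in KR controls 4 and 6. It had 305, 298 and 377 CPM in LR mice 1 to 3, against 117, 151 and 185 CPM in LR controls 2, 3 and 5. In KN1 mice 1 to 4 it had 131, 81.7, 107 and 129 CPM, against 45.3 and 34.5 CPM in KN1 controls 1 and 7. The groups did not overlap in any batch, yet LR control 5 stood above 1 KR mouse and above all 4 KN1 mice. On the log2 scale the fold change was 1.46 ± 0.23 (SE) in KR, 1.12 ± 0.20 in LR and 1.49 ± 0.23 in KN1.

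Ceacam12 was a low gene, with 8 to 210 reads per library. It had 11.2, 11.1, 10.1 and 12.9 CPM in KR, against 1.88 and 3.15 CPM in KR controls. LR mice had 18.9, 13.9 and 22.6 CPM, against 2.36, 4.41 and 2.86 CPM in LR controls. KN1 mice had 4.95, 4.98, 6.23 and 4.14 CPM, against 1.58 and 0.868 CPM in KN1 controls. All mutants lay above their own controls, and the lowest KN1 mouse lay below LR control 3. This gave log2 fold changes that were 2.20 ± 0.32 in KR, 2.52 ± 0.28 in LR and 1.97 ± 0.34 in KN1. KN1 control 7 held 8 reads of Ceacam12, and without KN1 control 1 the KN1 value was 2.52. Exons of Ceacam12 share 186 of 2624 bases with Gm44613, annotated as antisense on the other strand, and reads from that stretch cannot be told apart without strand-specific counting.

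Ptprs was the most abundant of the 8 in CPM. It had 380.0, 441, 304 and 398 CPM in KR, against 230 and 203 CPM in KR controls. Its LR values were 552, 404 and 713 CPM, against 354, 355 and 267 CPM in LR controls. Its KN1 values were 285, 299, 287 and 352 CPM, against 174 and 165 CPM in KN1 controls. The shift was smaller than that of the other higher genes, at 0.82 ± 0.20 for KR, 0.77 ± 0.18 for LR and 0.85 ± 0.20 for KN1 on the log2 scale.

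RP24-138O17.3 had 9.26, 10.99, 7.68 and 11.6 CPM in KR, against 1.59 and 1.53 CPM in KR controls. In LR it had 17.2, 13.0 and 19.3 CPM, against 2.72, 3.16 and 4.47 CPM in LR controls. In KN1 it had 5.57, 3.24, 7.06 and 4.94 CPM, against 1.02 and 1.74 CPM in KN1 controls. Groups did not overlap within a batch, and KN1 2 lay below LR control 5. The log2 fold change was 2.65 ± 0.34 in KR, 2.24 ± 0.29 in LR and 1.96 ± 0.35 in KN1. RP23-348B21.2 had 4.87, 8.72, 5.63 and 6.41 CPM in KR, against 1.98 and 1.44 CPM in KR controls. LR mice had 13.0, 11.6 and 10.2 CPM, against 3.43, 2.82 and 3.58 CPM in LR controls. KN1 mice had 5.32, 4.98, 11.6 and 9.54 CPM, against 3.62 and 1.63 CPM in KN1 controls. Every mutant of every batch lay above every control of every batch. On the log2 scale the fold change was 1.88 ± 0.39 in KR, 1.82 ± 0.34 in LR and 1.52 ± 0.38 in KN1, and the KN1 value was 2.25 without KN1 control 1 and 1.11 without KN1 control 7. RP24-138O17.3 and RP23-348B21.2 had 15 to 179 reads per library.

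**Figure D1:**
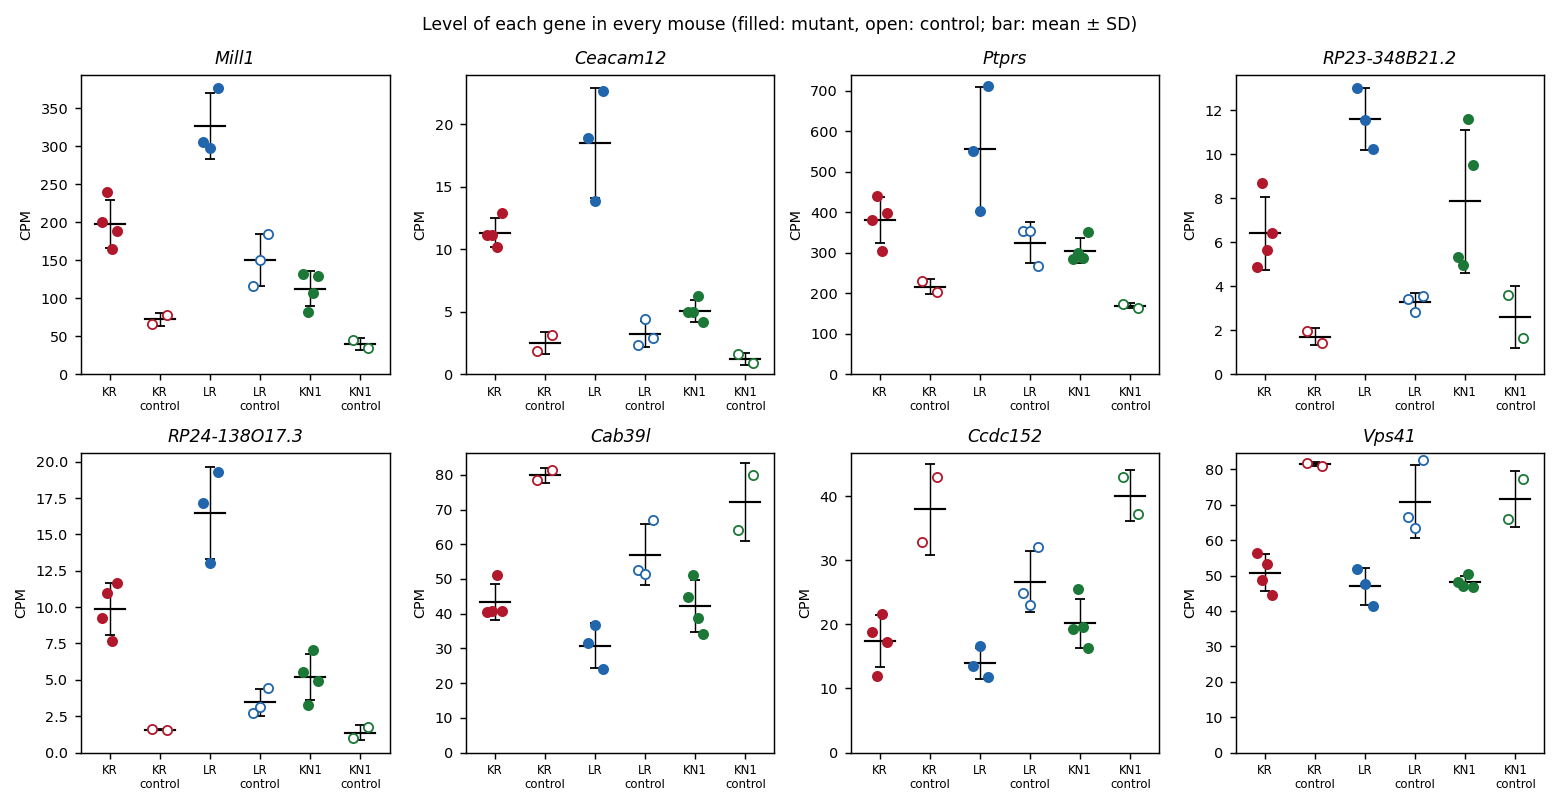
CPM of the 8 genes in each mouse, by group, with filled points for mutants, open points for controls, and bars for mean ± SD. In each panel the mutants lie on one side of the controls of their own batch, while the levels of whole batches differ, as for Mill1, at 298 to 377 CPM in LR, 117 to 185 CPM in LR controls and 34.5 to 45.3 CPM in KN1 controls.

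Among the lower genes, Cab39l had 40.5, 40.9, 51.3 and 40.7 CPM in KR, against 78.4 and 81.4 CPM in KR controls. Its LR values were 31.6, 36.8 and 24.0 CPM, against 52.5, 51.3 and 67.1 CPM in LR controls. Its KN1 values were 44.9, 51.3, 38.6 and 34.1 CPM, against 64.2 and 80.1 CPM in KN1 controls. No mutant reached a control of any batch, although the highest mutant, at 51.28 CPM, was next to the lowest control, at 51.29 CPM. This gave log2 fold changes that were -0.88 ± 0.18 in KR, -0.88 ± 0.18 in LR and -0.77 ± 0.18 in KN1. Its exons share 261 of 6841 bases with Cdadc1 on the other strand, whose log2 fold changes of -0.21, -0.27 and -0.26 in KR, LR and KN1 did not pass edgeR's quasi-likelihood test (adjusted p = 0.35, 0.315 and 0.319).

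Vps41 had 56.5, 48.8, 53.3 and 44.5 CPM in KR, against 81.9 and 81.1 CPM in KR controls. In LR it had 51.8, 47.7 and 41.5 CPM, against 66.7, 63.5 and 82.6 CPM in LR controls. In KN1 it had 48.3, 47.0, 50.4 and 46.8 CPM, against 66.0 and 77.2 CPM in KN1 controls. The 11 mutants spanned 41.5 to 56.5 CPM and the 7 controls 63.5 to 82.6 CPM, with no overlap. The log2 fold change was the smallest of the 8, at -0.68 ± 0.13 in KR, -0.59 ± 0.13 in LR and -0.57 ± 0.14 in KN1.

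Ccdc152 had 18.8, 11.9, 21.6 and 17.2 CPM in KR, against 32.9 and 43.0 CPM in KR controls. LR mice had 13.4, 16.6 and 11.7 CPM, against 24.9, 22.9 and 32.1 CPM in LR controls. KN1 mice had 19.3, 25.5, 19.7 and 16.3 CPM, against 42.9 and 37.2 CPM in KN1 controls. Groups did not overlap within a batch, and KN1 2 lay above LR controls 2 and 3. On the log2 scale the fold change was -1.13 ± 0.22 in KR, -0.94 ± 0.22 in LR and -0.99 ± 0.22 in KN1. Ccdc152 shares 439 of its 1358 exon bases with the selenoprotein P gene on the other strand, listed in the count table under its older symbol Sepp1, and no source used here says whether counting used strand. Without strand-specific counting, reads of the pair cannot be told apart in that stretch. Sepp1 averaged 76.2 ± 22.5 CPM in KR (SD, n = 4) and 147 ± 12.1 CPM in KR controls (n = 2), 67.0 ± 9.77 CPM in LR and 106 ± 29.1 CPM in LR controls (n = 3 each), and 73.7 ± 21.3 CPM in KN1 (n = 4) and 115 ± 6.29 CPM in KN1 controls (n = 2). Its log2 fold changes of -0.94, -0.66 and -0.64 did not pass edgeR's quasi-likelihood test (adjusted p = 0.0633, 0.199 and 0.191). Sepp1 was called in KR by DESeq2 (-0.95, adjusted p = 0.0153) and by edgeR without KR 4 (-1.15, adjusted p = 0.0213), without LR control 5 (-0.94, adjusted p = 0.0277) or with the replicate block (-0.94, adjusted p = 0.0454). With all 7 controls pooled, edgeR called it in LR (-0.84, adjusted p = 0.0347) and KN1 (-0.70, adjusted p = 0.0349).

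Per kilobase of annotated exon, the order of the 6 genes with a known length differed between KR and KR controls. Such a change of order includes the shift on which the genes were chosen. In KR it was Mill1 with 79.5 ± 12.6 CPM per kb (SD, n = 4), Ptprs with 25.4 ± 3.81, Ccdc152 with 12.8 ± 3.00, Vps41 with 7.55 ± 0.78, Cab39l with 6.34 ± 0.772 and Ceacam12 with 4.32 ± 0.443. The ranges of Vps41 and Cab39l overlapped. In KR controls it was Mill1 with 29.0 ± 3.55 CPM per kb (n = 2), Ccdc152 with 27.9 ± 5.25, Ptprs with 14.4 ± 1.25, Vps41 with 12.1 ± 0.082, Cab39l with 11.7 ± 0.307 and Ceacam12 with 0.96 ± 0.342, with Mill1 and Ccdc152 overlapping. In KN1 the first 3 were Mill1 with 45.1 ± 9.28 CPM per kb (n = 4), Ptprs with 20.4 ± 2.10 and Ccdc152 with 14.9 ± 2.82, while in KN1 controls Ccdc152 came first with 29.5 ± 2.96 (n = 2), before Mill1 with 16.0 ± 3.05 and Ptprs with 11.3 ± 0.426. The first 3 had the same order in LR, where Mill1 had 131 ± 17.6 CPM per kb, Ptprs 37.1 ± 10.3 and Ccdc152 10.2 ± 1.80, and in LR controls, where Mill1 had 60.5 ± 13.7, Ptprs 21.7 ± 3.35 and Ccdc152 19.6 ± 3.55 (n = 3 each), the last pair overlapping.

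**Figure D2:**
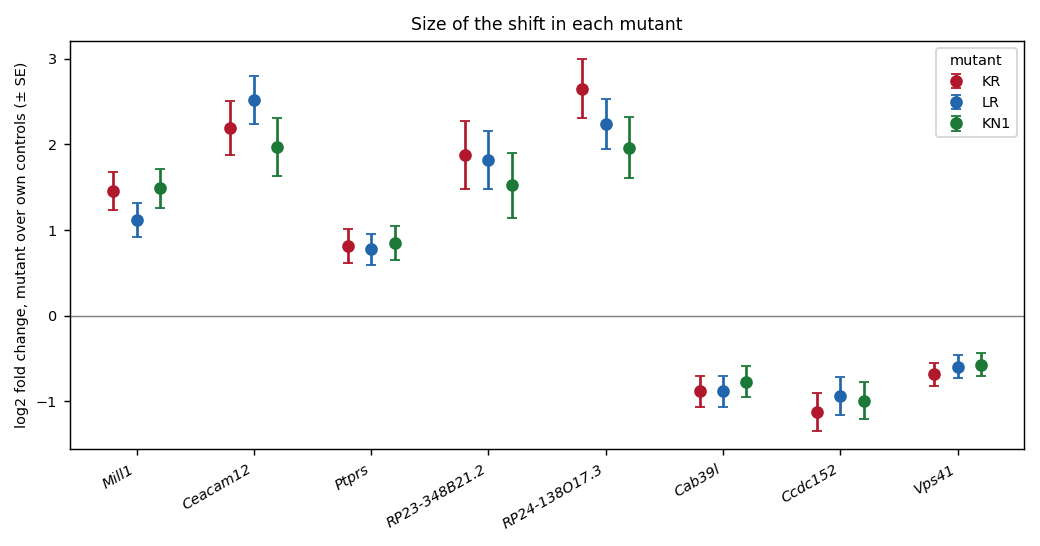
Log2 fold change of each gene in KR, LR and KN1 against its own controls, with standard errors from the quasi-likelihood fit. The 5 higher genes lie between 0.77 and 2.65 and the 3 lower genes between -1.13 and -0.57. The 3 values of a gene span 0.078 in Ptprs and up to 0.69 in RP24-138O17.3.

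All 8 genes passed in each mutant (adjusted p under 0.05 by edgeR's quasi-likelihood test), which is how they were chosen; over all tested genes 1.6% were called in KR (0.696% higher, 0.902% lower), 1.12% in LR (0.872% higher, 0.248% lower) and 1.97% in KN1 (0.86% higher, 1.11% lower). Only 9 genes, 0.0545% of those tested, were called in one direction in all 3, and 0 genes were called in all 3 with mixed signs. The ninth is Tslp, the epithelial cytokine, named here after its values were seen, at 5.58 for KR, 2.58 for LR and 2.19 for KN1 on the log2 scale. The members nearest to the threshold were Ptprs, whose largest adjusted p was 0.0486, and RP23-348B21.2, at 0.0455. Just outside were Ppp1r18 (largest adjusted p 0.0509, log2 fold changes 0.72, 1.19 and 0.62), Maob (0.0609, with -1.18, -1.25 and -1.24) and Dynlt3 (0.0617, with -0.78, -0.69 and -0.71) in KR, LR and KN1. All 8 genes separated mutants from their own controls in all 3 batches, as did 3.75% of tested genes in one direction, while 38.4% did so in KR, 19.6% in LR and 28.1% in KN1 in either direction. In 3 of the 8, RP23-348B21.2, Cab39l and Vps41, all 11 mutants lay beyond all 7 controls, as in 0.72% of tested genes (0.297% higher, 0.424% lower).

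Membership rested on few mice. With 1 of the 18 mice left out at a time, between 0 and 7 of the 8 were still called in all 3 mutants, and no single omission kept all 8. Ceacam12 was kept in 16 of the 18 omissions, RP24-138O17.3 in 15 and Mill1 in 14, against 6 for RP23-348B21.2, 5 for Cab39l, 4 for Vps41, 3 for Ccdc152 and 2 for Ptprs. Each omission other than KR 4, LR 2 and KN1 2 left 5 or fewer. The lowest counts followed the loss of a control: 0 without KN1 control 7, 1 (Ceacam12) without KR control 6 and 1 (RP24-138O17.3) without KR control 4. It was 3 without any 1 of KN1 control 1, KR 3, KR 5, LR 3, KN1 3 and KN1 4, 4 without LR control 3, LR control 5, LR 1 or KN1 1, and 5 without LR control 2 or KR 1. With the 3 second-named controls left out 1 gene stayed, RP24-138O17.3, and KR and KN1 then have 1 control each, which is assumed to vary like the other groups.

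The sizes also depended on the controls used. With all 7 controls pooled, which sets each mutant against controls of other batches too, 16 of the 24 fold changes moved by more than the SD between mice. Mill1 was then at 1.04, 1.76 and 0.22 on the log2 scale in KR, LR and KN1, Ptprs at 0.61, 1.16 and 0.29, Ceacam12 at 2.23, 2.93 and 1.07, RP24-138O17.3 at 2.12, 2.85 and 1.19, and RP23-348B21.2 at 1.28, 2.13 and 1.57. The lower genes were then at -0.65, -1.14 and -0.68 for Cab39l, -0.96, -1.27 and -0.74 for Ccdc152, and -0.54, -0.66 and -0.62 for Vps41. Without the second-named controls the lower genes were at -0.88, -0.75 and -0.61 for Cab39l in KR, LR and KN1, -0.95, -0.78 and -1.09 for Ccdc152, and -0.72, -0.47 and -0.46 for Vps41. LR control 5 was the highest LR control for each of these genes, and with only LR controls 2 and 3 the LR values were -0.75, -0.78 and -0.47. With the second-named share of each library as a covariate, 10 of the 24 fold changes moved by more than the SD between mice. Neither the covariate nor dropping these controls separates mutation from merging or a second name in KR and KN1. Dropping them leaves only a merged control there, and the covariate rests on a trend among controls alone. With the covariate, Vps41 went to -0.45 in KR and -0.34 in KN1, Cab39l to -0.61 and -0.49, and Ccdc152 to -0.85 and -0.73. Mill1 went to 1.69 in KR and 1.71 in KN1, and RP24-138O17.3 to 3.09 and 2.42. Ptprs went to 0.55 and 0.58, Ceacam12 to 2.09 and 1.87, and RP23-348B21.2 to 1.70 and 1.35. Without the second-named controls the higher genes were at 2.55, 2.43 and 1.67 for Ceacam12, 1.56, 1.29 and 1.31 for Mill1, 0.70, 0.64 and 0.81 for Ptprs, 1.66, 1.89 and 1.11 for RP23-348B21.2, and 2.60, 2.48 and 2.33 for RP24-138O17.3.

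The size of the shift was then compared between mutants, as a difference of contrasts in the same fit. Selection for a call in every mutant removes genes with a shift in 1 mutant alone, so a likeness of size is partly fixed by the choice. Of 24 differences (8 genes, 3 pairs of mutants), 0 passed edgeR's quasi-likelihood test, and 0 had an unadjusted p under 0.05. DESeq2 also called 0, with 0 at an unadjusted p under 0.05. Over all genes 0.00605% were called for KR minus LR, 0% for KR minus KN1 and 0.00605% for LR minus KN1, and 4.15%, 7.57% and 7.04% had an unadjusted p under 0.05. Tslp, the other gene called in all 3 mutants, is outside the 24. It differed by 2.99 ± 0.72 (SE) for KR minus LR and 3.39 ± 0.80 for KR minus KN1, wider than any of the 24. For LR minus KN1 it was 0.39 ± 0.70. None of these passed edgeR's quasi-likelihood test (adjusted p = 0.928, 0.264 and 0.96). Tslp was low in KR controls, at 0.193 and 0.27 CPM.

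The intervals set how far the sizes could differ. The widest point difference was that of RP24-138O17.3, 0.69 on the log2 scale for KR minus KN1 (95% interval -0.31 to 1.69, adjusted p = 0.763). Ceacam12 differed by 0.55 for LR minus KN1 (interval -0.37 to 1.47, adjusted p = 0.865). Mill1 differed by -0.37 for LR minus KN1 (interval -0.99 to 0.24, adjusted p = 0.861) and by 0.34 for KR minus LR (-0.27 to 0.95, adjusted p = 0.98). RP23-348B21.2 had 0.35 for KR minus KN1 (-0.74 to 1.45, adjusted p = 0.892). For Ptprs the KR minus LR difference was 0.042 (-0.52 to 0.60), for Cab39l 0.0035 (-0.53 to 0.53), for Ccdc152 -0.19 (-0.84 to 0.47) and for Vps41 -0.087 (-0.48 to 0.31). The 3 fold changes of a gene spanned 0.078 in Ptprs, 0.11 in Cab39l and Vps41, and 0.69 in RP24-138O17.3. A difference that missed the threshold does not show that the mutants act alike.

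**Figure D3:**
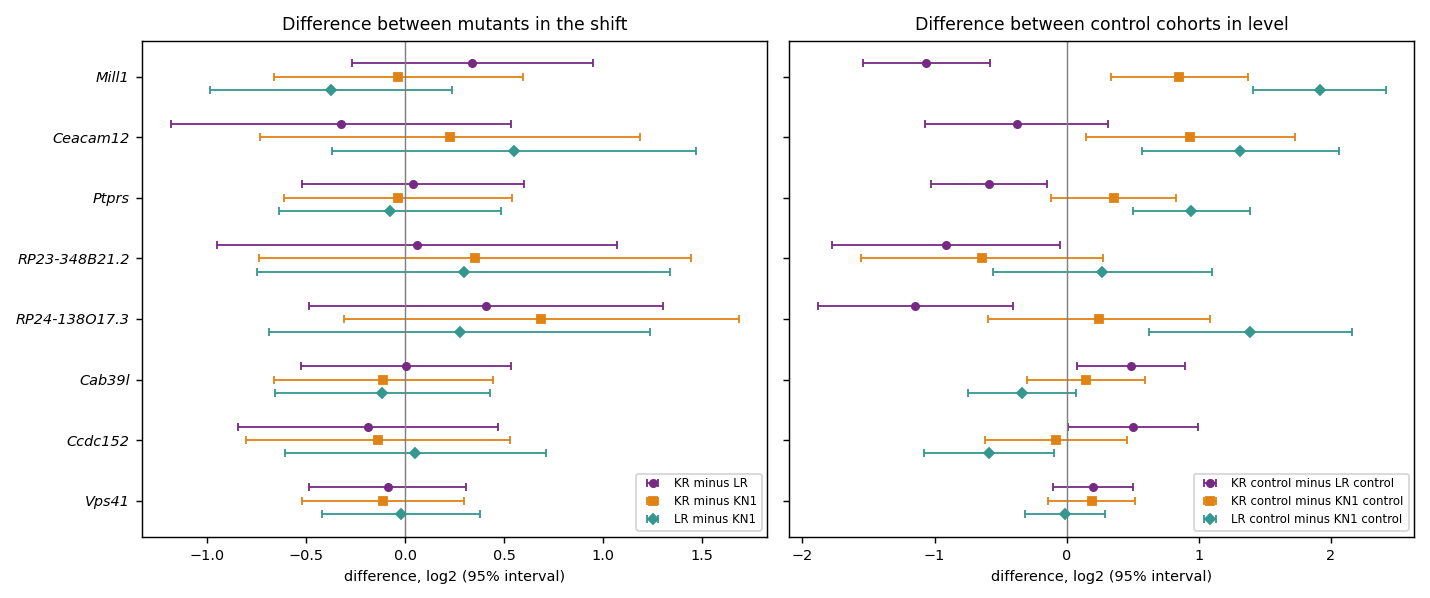
Left, difference between mutants in the log2 fold change of each gene. Right, difference between control cohorts in log2 level, each with its 95% interval. All 24 intervals on the left include 0. On the right 0 lies outside the intervals of 6 genes for KR minus LR controls, 2 for KR minus KN1 controls and 5 for LR minus KN1 controls. Mill1 is among them each time, at -1.06, 0.85 and 1.91.

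The levels of control skin differed between batches for some of the genes. The choice did not use this comparison, although the same control values enter the contrasts it used. Mill1 passed in all 3 pairs of control cohorts by edgeR's quasi-likelihood test. KR controls were below LR controls by 1.06 on the log2 scale (difference -1.06 ± 0.23, SE, adjusted p = 0.0261), KR controls above KN1 controls (0.85 ± 0.25, adjusted p = 0.0326), and LR controls above KN1 controls (1.91 ± 0.24, adjusted p = 9.1e-05). LR controls were also above KN1 controls in Ceacam12 (1.31 ± 0.35, adjusted p = 0.0111), RP24-138O17.3 (1.39 ± 0.37, adjusted p = 0.00962) and Ptprs (0.94 ± 0.21, adjusted p = 0.00333). Thus 1, 1 and 4 of the 8 genes were called for KR minus LR, KR minus KN1 and LR minus KN1 controls, against 1.56%, 12.7% and 27.6% of all genes. At an unadjusted p under 0.05 by the same test there were 6, 2 and 5 of the 8, against 17.9%, 31.1% and 39.7% of all genes. RP23-348B21.2, Cab39l, Ccdc152 and Vps41 did not pass in any pair.

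A batch and its controls cannot be told apart. The Mill1 difference between KR and LR controls did not pass without LR control 3 (-1.06, adjusted p = 0.0955), KR control 4 (-0.94, adjusted p = 0.155) or KR control 6 (-1.17, adjusted p = 0.243), and that between KR and KN1 controls not without KR control 4 (0.97, adjusted p = 0.0707), KR control 6 (0.74, adjusted p = 0.188) or KN1 control 7 (0.70, adjusted p = 0.172). The Ceacam12 difference was lost without LR control 3 (1.03, adjusted p = 0.0527) or KN1 control 7 (1.02, adjusted p = 0.111), and that of RP24-138O17.3 without KN1 control 1 (0.99, adjusted p = 0.138). By contrast, Ptprs between KR and LR controls passed without LR control 5 (-0.71, adjusted p = 0.0486), and Ccdc152 between LR and KN1 controls passed without LR control 5 (-0.74, adjusted p = 0.0407) or KR 3 (-0.59, adjusted p = 0.0467), all by edgeR's test. In all 8 genes the order of the 3 mutant means was the order of the 3 control means, with LR highest in the 5 higher genes and lowest in the 3 lower genes. A mutant mean holds the level of its batch plus a shift chosen to have one direction, so this order is partly fixed. For Vps41 the LR and KN1 control means were close, at 70.9 and 71.6 CPM.

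Positions and neighbours were examined next. Tested genes whose lower coordinate lies within 500 kb of that of one of the 6 placed genes numbered 47 of 140 annotated. Of these 47, by edgeR's quasi-likelihood test, 0 rose and 1 fell in KR, and 0 passed in LR or KN1, against 1.6%, 1.12% and 1.97% of all genes. The median log2 fold change of the 47 was 0.20 in KR, 0.19 in LR and 0.11 in KN1, beside 0.040, -0.0041 and 0.018 over all genes. Of the 47, 35 lie around Ptprs, so the median mostly describes that stretch. Around Ccdc152 the median of 2 genes was -0.87 in KR, -0.60 in LR and -0.45 in KN1. Around Vps41, also with 2 genes, it was -0.46, -1.505 and -1.10. Around Cab39l, with 7 genes, it was -0.19, 0.105 and 0.108. The gene that fell was Ghr, the growth hormone receptor, whose lower coordinate is 37.7 kb above that of Ccdc152, with 30.7 ± 6.59 CPM in KR (SD, n = 4) and 53.2 ± 3.88 CPM in KR controls (n = 2), which is -0.79 ± 0.17 on the log2 scale (SE, adjusted p = 0.0359). For Ghr the LR value was -0.54 and the KN1 value -0.27, with adjusted p of 0.133 and 0.444. Its call was lost without KR control 4 (-0.87), KR control 6 (-0.74), KR 1 (-0.83), KR 3 (-0.72), KR 5 (-0.71) or KN1 4 (-0.79). The count over the 3 mutants was 1, and became 8 without LR control 5, 2 without KR 4 and 0 without any 1 of KR 1, KR 3, KR 5, KN1 4 and both KR controls.

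Between Ceacam12 and Mill1 the 1 tested gene was Igfl3, an insulin growth factor-like gene, whose lower coordinate is 110.6 kb above that of Ceacam12. It averaged 2.48 ± 1.65 CPM in KR (SD, n = 4) and 0.883 ± 1.04 CPM in KR controls (n = 2), 2.97 ± 2.68 CPM in LR and 0.752 ± 0.686 CPM in LR controls (n = 3 each), and 1.204 ± 0.1996 CPM in KN1 (n = 4) and 0.689 ± 0.254 CPM in KN1 controls (n = 2). Its log2 fold changes of 1.62, 2.00 and 0.85 did not pass edgeR's test (adjusted p = 0.274, 0.245 and 0.66). These values depended on single mice: for Igfl3 in KR it was 0.61 without KR control 4, 3.96 without KR control 6 and 1.08 without KR 3, in LR 3.01 without LR control 2 and 0.97 without LR 3, and in KN1 0.46 without KN1 control 1. Around Ptprs 35 genes were tested and 0 passed, with medians 0.27 for KR, 0.20 for LR and 0.13 for KN1. Around Cab39l 7 genes and around Vps41 2 genes were tested, again with 0 passing.

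**Figure D4:**
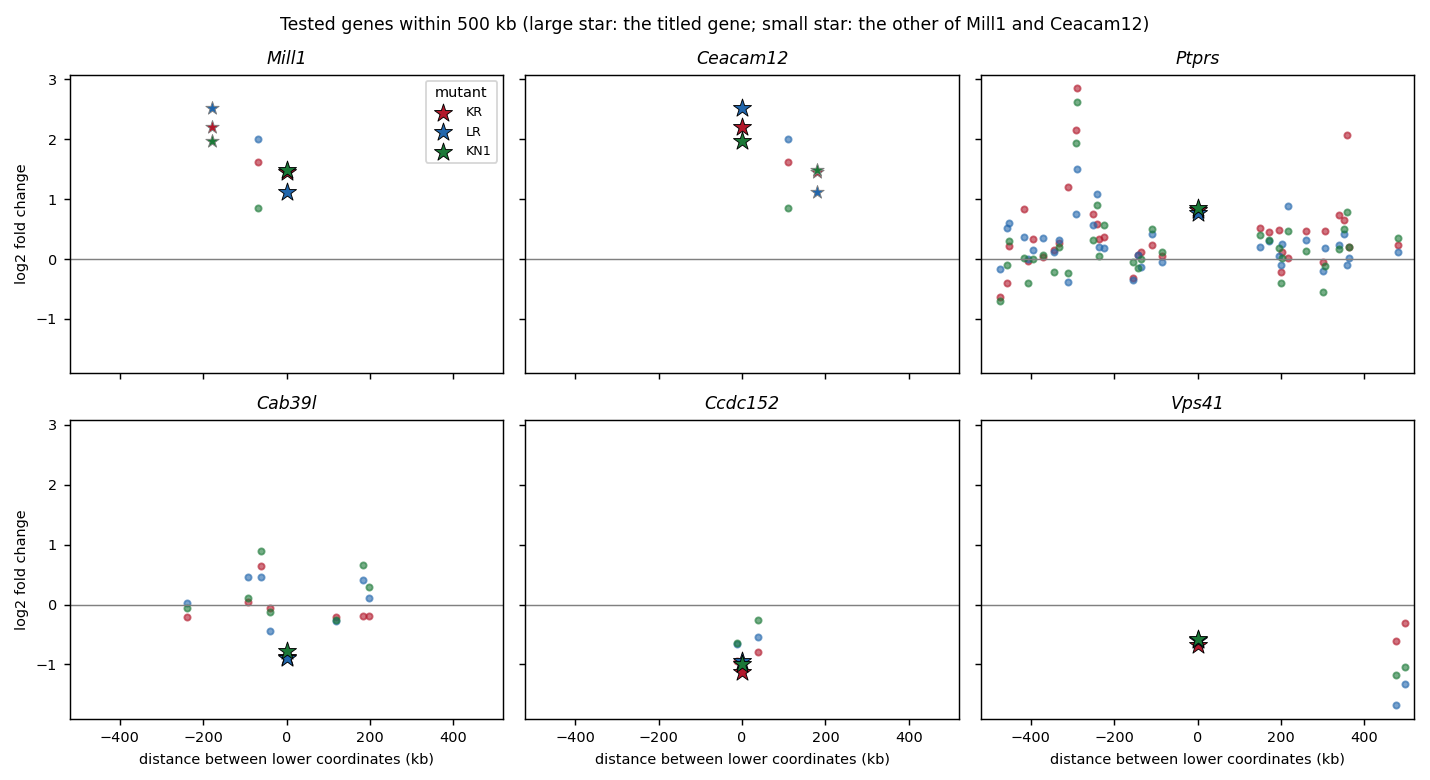
Log2 fold change of tested genes by distance of their lower coordinate from that of the titled gene (kb), with the gene itself as a large star and colours for KR, LR and KN1. Igfl3 at 110.6 kb from Ceacam12 has values of 1.62, 2.00 and 0.85, none called, which with 1 mouse left out run from 0.61 to 3.96 in KR, 0.97 to 3.01 in LR and 0.46 to 1.21 in KN1, and the 35 genes around Ptprs scatter about medians of 0.27, 0.20 and 0.13.

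Relatives of the 8 genes were followed by gene lists. Mill2, the rodent paralog of Mill1, averaged 8.69 ± 2.66 CPM in KR (SD, n = 4) and 9.39 ± 3.86 CPM in KR controls (n = 2), 13.3 ± 6.01 CPM in LR and 22.9 ± 1.71 CPM in LR controls (n = 3 each), and 10.5 ± 2.36 CPM in KN1 (n = 4) and 22.9 ± 0.528 CPM in KN1 controls (n = 2). Its log2 fold changes of -0.13, -0.78 and -1.13 were opposite in sign to those of Mill1 (in KR the sign turned with 1 mouse left out, -0.51 to 0.37) and did not pass edgeR's test (adjusted p = 0.851, 0.256 and 0.0886), with the KN1 value called by DESeq2 (-1.14, adjusted p = 0.0322) and without LR 3 (-1.13, adjusted p = 0.0403). The MHC class I-like list had 0 of 8 tested genes called in any mutant, with medians of 0.048, 0.065 and -0.37 in KR, LR and KN1. Of the other Ceacam genes on the list 1 of 15 was tested, Ceacam19, with -0.75, -0.57 and -0.36 (adjusted p = 0.0746, 0.203 and 0.394). Ptprf, a phosphatase of the same subfamily as Ptprs, had -0.0095 in KR, -0.065 in LR and 0.38 in KN1 (adjusted p = 0.973, 0.84 and 0.124 by edgeR's test). DESeq2 called Ptprf in KN1 (0.37, adjusted p = 0.0405).

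In the list of type IIa receptor phosphatases and their partners 1 of 11 tested genes fell in LR and 0 passed in KR and KN1, with medians of -0.35, -0.36 and -0.078 in KR, LR and KN1. The gene was Cttnbp2, which encodes a cortactin-binding protein, with 42.9 ± 16.5 CPM in LR and 98.6 ± 18.8 CPM in LR controls (SD, n = 3 each), a difference of -1.198 ± 0.28 on the log2 scale (SE, adjusted p = 0.0499 by edgeR's quasi-likelihood test). This call was lost when any 1 of 15 mice was left out, with values from -1.35 to -0.92. The count over all family lists was 7 without LR control 5, 5 without KR 4, 2 without LR control 2, LR 2 or LR 3, 1 without KN1 control 1, KN1 1 or KR 5, and 0 without any other 1 mouse, against 1.

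Cab39, the close relative of Cab39l, had -0.40 in KR, -0.062 in LR and -0.10 in KN1 (adjusted p = 0.126, 0.876 and 0.762). The list of LKB1 and MO25 kinases had 0 of 24 called in any mutant, with medians of 0.024, 0.067 and 0.17. The HOPS and CORVET complex list around Vps41 had 0 of 15 called, with medians of -0.19, -0.095 and -0.065 in KR, LR and KN1. The selenoprotein P list had 0 of 12 called, with medians of 0.25, 0.14 and 0.067. The list of 10 tested Notch targets had 0 called, with medians of -0.22, -0.11 and -0.041. All these are calls by edgeR's quasi-likelihood test, against 1.6%, 1.12% and 1.97% of all genes, and over all lists DESeq2 made 11 calls in place of 1.

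The genes whose pattern was most like each of the 8 were found by Pearson's r of log2 CPM over 18 mice, after the mean of each batch was removed. Since mutants and controls differ within a batch, this likeness includes the shift on which the genes were chosen, and the points share libraries. Mill1 was most like RP24-138O17.3 (r = 0.94) and the gut hormone gene Pyy (0.93). Ceacam12 was most like Eif4e3 (0.94) and RP24-138O17.3 (0.94), and RP24-138O17.3 was most like Mill1 (0.94) and Plod3 (0.94). RP23-348B21.2 was most like RP23-131B11.3 (0.92) and Pyy (0.91). Ptprs was most like Slc27a1 (0.96) and Pitpnm1 (0.95). Among the lower genes, Cab39l was most like RP23-452K4.2 (0.97) and Gid8 (0.96), Ccdc152 most like Vps50 (0.95) and Cab39l (0.94), and Vps41 most like Abhd5 (0.97) and the desmosomal cadherin gene Dsg1a (0.96).

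The variation among mice of 1 group, with all 6 group means removed, is free of that shift. Over 18 mice the 10 pairs of higher genes had r from 0.12 to 0.50 with a median of 0.23, highest for Mill1 with RP24-138O17.3. The 3 pairs of lower genes had 0.40, 0.56 and 0.69, the last for Cab39l with Ccdc152. The 15 mixed pairs had r from -0.83 to 0.21 with a median of -0.41. Ptprs ran opposite to Cab39l (-0.83), Ccdc152 (-0.78) and Vps41 (-0.60) within groups, and within LR the mouse with the highest Ptprs, LR 3 at 713 CPM, had the lowest Cab39l, Ccdc152 and Vps41. Mill1 with Vps41 (-0.037) and Ceacam12 with Ccdc152 (-0.031) showed little relation. These are descriptions over libraries that share normalization, with no test. KR and KN1 controls hold 2 mice each, so their deviations mirror each other and set a merged library against a second-named one. Among LR controls, second-named LR control 5 had the lowest Ptprs, at 267 CPM, and the highest Cab39l, Ccdc152 and Vps41. In control groups, variation between mice therefore cannot be told apart from merging or a second name.

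**Figure D5:**
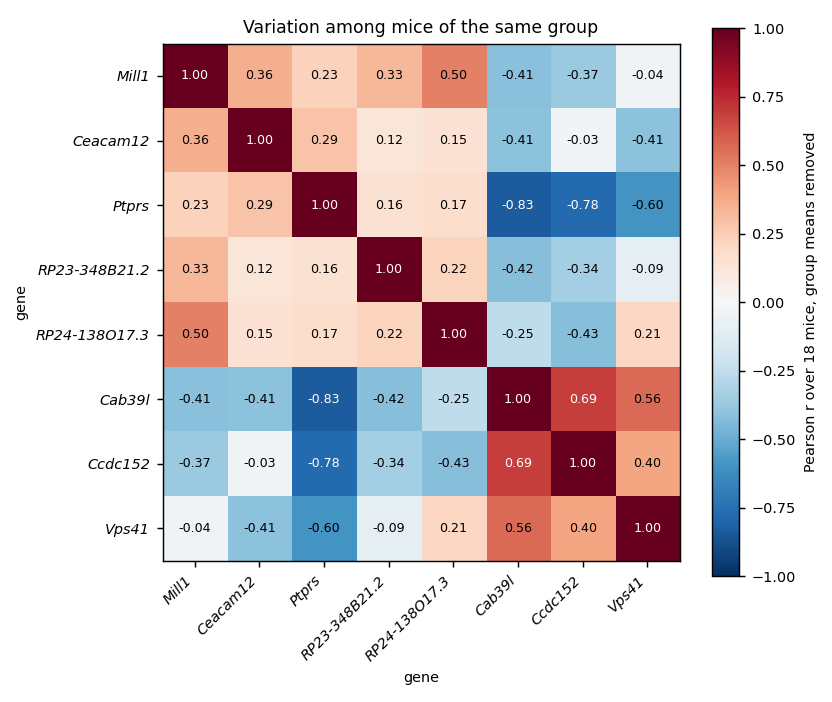
Pearson's r between the 8 genes over 18 mice after removal of the 6 group means, from blue (-1) to red (1). Ptprs against Cab39l (-0.83) and Ccdc152 (-0.78) are the strongest negative cells, and Cab39l against Ccdc152 (0.69) the strongest positive one off the diagonal.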

How the data were processed

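RNA-seq counts of 18 mice were analysed. The deposited values are raw read counts, 1 row per gene, with STAR, HTSeq and DESeq2 and the build mm10 named in the submitters' processing notes without roles or versions. All 18 columns matched a mouse by title. The members, lists and tests were chosen with earlier results of these data known. From the counts, edgeR 4.0.16 (R 4.3.3) was used with filterByExpr (16517 of 21011 genes kept), TMM factors, 6 group means and robust quasi-likelihood F tests over all mice, two-sided, with Benjamini-Hochberg adjustment over all tested genes at 0.05. Standard errors come from the F statistic, and log2 CPM used a prior count of 2. Mice of 1 group were more unlike than sampling noise allows (chi-square per degree of freedom at least 5.98). The named genes are the 8, the nearest ones outside the threshold with an ordinary symbol, neighbours, list genes with the smallest adjusted p, paralogs and the genes most alike in pattern. Alternatives were DESeq2 1.42.0, RLE factors, other filters, cohorts fitted alone, pooled controls, second-named controls left out or as a covariate, a replicate block, and each mouse left out. Each sample is 1 mouse, so p-values measure the spread between mice of a group, pooled over the groups. In the controls that spread also holds merging and second names. No p-value measures the spread between batches.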

Additional observations from a re-analysis of the deposited data

Results flagged for a closer look

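Cab39l in KR 4, at 51.3 CPM, stood apart from KR 1, 3 and 5, at 40.5 to 40.9 CPM: its gap to the nearest of the others was 0.961 of the whole range of the group, above the critical ratio of Dixon's test for 4 samples. It was 1 of 16 groups of 4 checked, where chance flags about 1 in 20. KR 4 still lay below both KR controls, at 78.4 and 81.4 CPM.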

How the results depend on the processing

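The count of genes called in one direction in all 3 mutants was 9 and ranged from 0 to 14 with 1 mouse left out; it was 47 with DESeq2, 106 with all 7 controls pooled, 0 with cohorts fitted alone, 1 with the second-named controls left out and 2 with their share as a covariate. Members among them were 8, from 0 to 7 with 1 mouse left out, 0 with cohorts fitted alone, 1 and 2 in those last settings, and 3 with the replicate block in LR. The causes were not tested. Differences between mutants called among the 24 stayed at 0 except 3 with controls pooled, where the controls cancel and mutants of different batches are compared. Calls among the 24 control differences were 6, from 4 to 8 with 1 mouse left out, 2 without the second-named controls and 3 with the replicate block. Neighbour calls were 1, from 0 to 8 with 1 mouse left out, 3 with DESeq2, 7 with pooled controls, 5 with the block, and 0 without the second-named controls or with the covariate. Family list calls were 1, from 0 to 7 with 1 mouse left out, 11 with DESeq2, 29 with pooled controls, 4 with the block, and 0 with cohorts fitted alone or with no filter on low counts. LR and its controls share only the numbers 2 and 3, which the labels do not call pairs (r of deviations 0.066 and -0.084), so the replicate block rests on 2 LR mice and 2 LR controls.

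Values that did not pass in the fit to all 18 mice changed sign as follows. With controls pooled, KR minus LR was -0.72 for Mill1, -0.55 for Ptprs, -0.86 for RP23-348B21.2, -0.73 for RP24-138O17.3, 0.32 for Ccdc152, 0.11 for Vps41, KR minus KN1 was 0.82 for Mill1, 0.32 for Ptprs, -0.29 for RP23-348B21.2, 0.036 for Cab39l, 0.077 for Vps41, LR minus KN1 was 1.54 for Mill1, 0.86 for Ptprs, -0.54 for Ccdc152, the fold change in KR was 0.11 for Ptprf, the fold change in LR was 0.14 for Ptprf, the fold change in KN1 was -0.16 for Ptprf. Without the second-named controls, KR minus KN1 was 0.25 for Mill1, 0.14 for Ccdc152, KR minus LR was 0.12 for Ceacam12, -0.22 for RP23-348B21.2, -0.13 for Cab39l, LR minus KN1 controls was -0.20 for RP23-348B21.2, the fold change in LR was 0.056 for Cab39, the fold change in KN1 was 0.086 for Cab39. With the covariate, KR minus LR was -0.12 for Ptprs, -0.023 for RP23-348B21.2, 0.028 for Vps41, LR minus KN1 was 0.086 for Ptprs, -0.070 for Ccdc152, LR minus KN1 controls was 0.11 for Vps41, the fold change in LR was 0.075 for Cab39, 0.011 for Ptprf, the fold change in KN1 was 0.19 for Cab39, the fold change in KR was 0.15 for Ptprf. With no filter on low counts, KR minus LR was -0.00055 for Cab39l, LR minus KN1 was 0.012 for Vps41. With the replicate block, KR minus LR was -0.081 for Cab39l, LR minus KN1 was 0.021 for Vps41, the fold change in LR was 0.090 for Cab39.

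With 1 mouse left out, KR minus KN1 ran from -0.25 to 0.12 for Mill1, -0.33 to 0.60 for Ceacam12, -0.13 to 0.058 for Ptprs, -0.38 to 0.74 for RP23-348B21.2, -0.30 to 0.043 for Cab39l, -0.32 to 0.060 for Ccdc152, -0.25 to 0.00052 for Vps41. KR minus LR ran from -0.68 to 0.037 for Ceacam12, -0.14 to 0.26 for Ptprs, -0.15 to 0.32 for RP23-348B21.2, -0.15 to 0.15 for Cab39l. LR minus KN1 ran from -0.0019 to 0.85 for Ceacam12, -0.30 to 0.10 for Ptprs, -0.44 to 0.71 for RP23-348B21.2, -0.090 to 0.67 for RP24-138O17.3, -0.28 to 0.044 for Cab39l, -0.096 to 0.21 for Ccdc152, -0.13 to 0.10 for Vps41. KR minus KN1 controls ran from -1.03 to 0.094 for RP23-348B21.2, -0.15 to 0.64 for RP24-138O17.3, -0.0052 to 0.34 for Cab39l, -0.27 to 0.097 for Ccdc152. LR minus KN1 controls ran from -0.14 to 1.00 for RP23-348B21.2, -0.13 to 0.11 for Vps41. The fold change in KR ran from -0.51 to 0.37 for Mill2, -0.045 to 0.0070 for Ptprf. The fold change in LR ran from -0.12 to 0.058 for Cab39. The fold change in KN1 ran from -0.28 to 0.086 for Cab39.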
